A study of Mus musculus with 16 samples.

Results

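The comparison of PKR-knockout with wild-type spleen cells after 5 days of imiquimod rests on 4 of the 16 libraries of the series, namely the 2 labelled KO_D5 and the 2 labelled WT_D5, chosen by their group labels alone. Imiquimod activates Toll-like receptor 7, and its cream on mouse skin is a model of psoriasis. All mice were male C57BL/6. Both day 5 groups received 62.5 mg of 5% imiquimod cream daily, so that they differ by label only in genotype: WT mice carry the intact Eif2ak2 gene, which encodes PKR, and KO mice lack PKR. The labels do not say which stretch of Eif2ak2 was removed or how the line was made. Spleens were passed through a 70-µm mesh and red cells were lysed, so mature red cells were largely removed before RNA was taken. Each library pooled the cells of 2 mice, and n is 2 libraries per group throughout. The spread between mice of a pool was not measured, and the labels do not say whether the pools were raised or handled separately, so a p-value speaks only of the spread between these libraries. The other 12 libraries, from both genotypes on days 0, 1 and 2, entered the test through a shared estimate of the spread and served as the earlier days for comparison. Day 0 mice received no cream, and no group received cream without imiquimod.

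PKR binds double-stranded RNA and then phosphorylates the translation factor eIF2alpha, which lowers protein synthesis and favours translation of the transcription factor ATF4. Its sister kinases respond to other signals: Eif2ak1 (HRI) to haem shortage, Eif2ak3 (PERK) to misfolded protein in the endoplasmic reticulum and Eif2ak4 (GCN2) to amino acid shortage. The mouse spleen makes red cells when demand rises, so that erythroblasts, which carry high levels of globin, haem synthesis and membrane skeleton transcripts, can become a large share of its cells. Plasma cells, which arise from B cells, devote much of their RNA to immunoglobulin and to the chaperones of the secretory pathway.

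Depth on day 5 was 35026754 to 40503939 fragments per library. Levels are CPM, the fragment count of 1 transcript per gene scaled to the library's composition-adjusted total; where levels of different genes are summed, FPKM, which also divides by transcript length, is used. Differences are log2 values, knockout minus wild type, with a standard error (SE). Erythroid markers were high in all 4 libraries. Slc4a1, the band 3 anion exchanger of the red cell membrane, was at 1207 and 916.5 CPM in the wild type on day 5, against 25.6 and 97.0 on day 0. The markers of liver (Alb), pancreas (Prss1) and fat (Plin1) were at most at 0.0518 CPM, while pancreatic Cela1 was at 6.47 to 9.27 CPM and the skin keratin Krt5 at no more than 0.259. Of 20 listed genes of such tissues 6 were high enough to test, with summed FPKM of 6.76 and 7.40 in the wild type against 8.84 and 5.68. Rank correlations across genes were 0.989 to 0.992 between libraries of different genotype, against 0.991 and 0.992 between the replicates of 1 genotype, which is a description over genes that share libraries.

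The genotype difference on day 5 was small for single genes. Of 18745 genes tested, 1 passed edgeR's test (0.00533%), and it was lower in the knockout. This was Ide, the insulin-degrading enzyme, a zinc protease of the cytosol that cleaves insulin and other short peptides. Unadjusted p was under 0.05 for 1177 genes (6.28%), of which 733 were higher (3.91%) and 444 lower (2.37%) in the knockout. DESeq2 on the same counts called 53 genes higher (0.462%) and 21 lower (0.183%), out of 11476 to which it gave an adjusted p. limma on log2 FPKM called 0, with 1306 genes at unadjusted p under 0.05. Both knockout libraries lay above both wild-type libraries for 3573 genes (19.1%) and below them for 3553 (19%), which is the background for the same counts in every gene group below.

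Ide was at 60.2 and 72.8 CPM in the wild type and at 30.5 and 30.7 CPM in the knockout on day 5. The groups were far apart and the 2 knockout libraries were nearly equal. Ide fell by 1.12 on the log2 scale (SE 0.14, adjusted p = 0.0039), and the mean of the wild type was 2.18 times that of the knockout. The gene lies on the minus strand of chr19:37268743-37330613 (mm10), on another chromosome than Eif2ak2. It was lower in both knockout libraries on day 0 as well, at 24.4 and 30.0 CPM against 50.01 and 49.1 (log2 -0.87, adjusted p = 0.0352; 1 gene, or 0.00533%, was called lower that day), and on day 1, at 37.3 and 36.9 against 76.8 and 77.7 (log2 -1.06, adjusted p = 0.00257; 8 genes called lower, 0.0427%). The day 5 difference minus the day 0 difference was -0.25 (SE 0.20, adjusted p = 0.776). On day 2 the library labelled KO_D2 replicate 1 was at 49.0 CPM, above both wild-type libraries at 44.2 and 41.3, and the other knockout library was at 36.1. The call of Ide was lost without WT replicate 2 (adjusted p = 0.226), without KO replicate 1 (0.0935) and with limma (0.191); over all settings tried its adjusted p ranged from 3.01e-12 to 0.226.

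Eif2ak2 itself, on the minus strand of chr17:78852564-78882573, was at 29.2 and 30.2 CPM in the wild type and at 15.8 and 18.8 CPM in the knockout on day 5. Both knockout libraries were thus lower, yet its transcript was still present at more than a trace. The log2 difference was -0.78 (SE 0.29, adjusted p = 0.653). All 4 annotated transcripts of the gene had lower mean counts in the knockout, with log2 ratios of the means from -0.47 to -1.26, but isoforms share fragments and a remaining transcript says nothing of the protein. On day 2 the library labelled KO_D2 replicate 1 was at 47.5 CPM, above the wild type at 32.8 and 42.5, while KO_D2 replicate 2 was at 21.5. That library goes against its label, and it touches day 5 only through the shared spread. Without it Eif2ak2 passed on day 5 (log2 -0.78, SE 0.14, adjusted p = 0.0452), and 4 genes were called higher (0.0205% of 19542) and 8 lower (0.0409%). Leaving out the other KO_D2 library instead gave the same counts, 4 higher and 8 lower.

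Zkscan3, a zinc finger protein with a KRAB domain, showed the reverse pattern. It was at 18.9 and 17.7 CPM in the wild type and at 31.0 and 32.0 CPM in the knockout on day 5. The groups did not overlap, and the log2 difference was 0.78 (SE 0.14, adjusted p = 0.119, and 0.0207 without KO_D2 replicate 1). On day 0 it was at 27.1 and 23.5 CPM in the wild type against 41.3 and 48.6 in the knockout (log2 0.83, adjusted p = 0.0352), as 1 of 3 genes called higher that day (0.016%; 0.0213% in either direction). KO_D2 replicate 1 again sat near the wild type, at 29.1 CPM against 28.5 and 23.6, with the other knockout library at 37.3. Zkscan3 and the genes taken from DESeq2's calls were chosen after their values were seen.

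**Figure D1:**
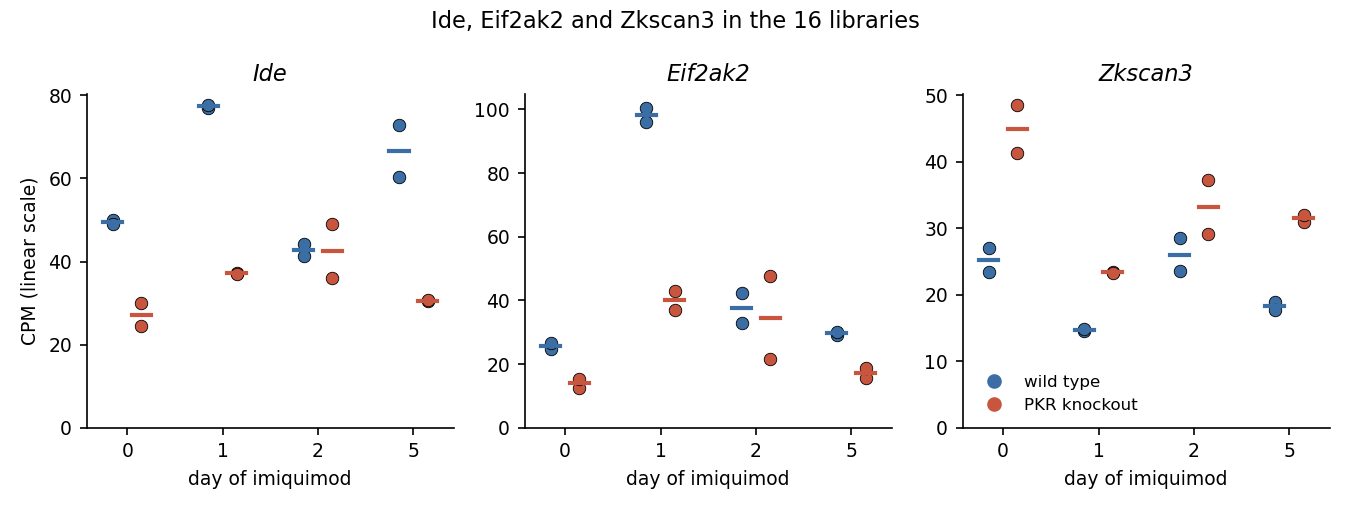
CPM of Ide, Eif2ak2 and Zkscan3 (linear axes) on each day of imiquimod; points are libraries, bars are means of 2. On day 5 Ide is at 60.2 and 72.8 CPM in the wild type against 30.5 and 30.7 in the knockout, and on day 2 1 knockout library lies with the wild type for all 3 genes.

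Genes near the targeted locus were counted separately. Within 10 Mb of the Eif2ak2 start 120 genes were tested and edgeR called 0 of them, with 7 at unadjusted p under 0.05 (5.83%, against 6.28% of all genes). Both knockout libraries were above the wild type for 16 of them (13.3%) and below for 24 (20%). DESeq2 called 1, Epcam, an epithelial adhesion molecule, at 2.43 and 3.25 CPM in the wild type and 1.30 and 1.33 in the knockout (log2 -1.11, SE 0.28, edgeR adjusted p = 0.290).

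Erythroid gene groups were higher in the knockout as groups, although no member passed edgeR's test. Of 117 distinct genes of 6 erythroid lists, both knockout libraries were above both wild-type libraries for 86 and below for 4, and the median difference was 0.47, against -0.02 for all genes tested. In 108 of the 117 the first knockout replicate was above the second (92.3%, against 50.3% of all genes), so the size of these differences leans on that library; without it the median of the haem list below was 0.34 in place of 0.52. In whole spleen cells, more cells of a type and more RNA per cell of that type cannot be told apart.

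Among enzymes and transporters of haem synthesis, 14 of 17 tested members were higher in both knockout libraries and none lower, with a median of 0.52. edgeR called 0, 11 had an unadjusted p under 0.05 in the direction of higher, and DESeq2 called 5. Summed FPKM of the list was 784 and 752 in the wild type and 1196 and 928.2 in the knockout. Slc25a37 (mitoferrin), which carries iron into the mitochondria of erythroblasts, had the smallest p of the list. Its levels were 291.7 and 227.6 CPM in the wild type and 546.4 and 426.4 CPM in the knockout. Both knockout libraries were well above the range of the wild type (log2 0.91, SE 0.18, edgeR adjusted p = 0.214, DESeq2 0.00106). On days 0, 1 and 2 Slc25a37 stayed at 19.3 to 76.5 CPM in all libraries.

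The enzymes of the pathway were read in their order. Alas2, the erythroid enzyme of the rate-limiting step, was at 212.4 and 141.9 CPM in the wild type and 338.3 and 285.4 in the knockout; the SE of its difference of 0.82 was also 0.82. Alas1, the form used outside the erythroid lineage, was at 12.5 and 14.3 against 11.3 and 13.6 CPM (log2 -0.11, SE 0.14). Uros, uroporphyrinogen III synthase, was at 27.9 and 29.2 CPM in the wild type and 46.9 and 37.8 in the knockout (log2 0.57, SE 0.14, DESeq2 adjusted p = 0.0335). Cpox, which acts after Urod in the pathway, was at 128.5 and 137.4 against 210.6 and 144.8 CPM, a difference of 0.42 (SE 0.17) in which KO replicate 2 lay close to the wild type. Ppox, the oxidase of the step before last, was at 51.6 and 47.8 CPM in the wild type and 80.8 and 69.5 in the knockout (log2 0.60, SE 0.14, DESeq2 adjusted p = 0.0184). Fech, ferrochelatase, which inserts the iron, was at 176.7 and 147.7 against 304.1 and 226.7 CPM (log2 0.71, SE 0.26, adjusted p = 0.651). The mitochondrial carrier Slc25a39 (37.9 and 32.7 against 55.3 and 46.2 CPM) and the transporter Abcb10 (124.9 and 105.6 against 201.7 and 166.8 CPM) also passed in DESeq2, at adjusted p of 0.0425 and 0.0467.

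Globin transcripts had the highest levels of any erythroid group. Summed FPKM over 7 tested globins was 13820 and 9599 in the wild type and 27270 and 19150 in the knockout, 1.98 times as much in the mean, and 6 of 7 were higher in both knockout libraries. Hbb-bs, an adult beta globin, was at 2733 and 1863 CPM in the wild type and at 5755 and 4005 CPM in the knockout. That is a log2 difference of 1.09 with an SE of 0.98 (adjusted p = 0.954). Hba-a1, an adult alpha globin, was at 2600 and 1578 against 4591 and 3636 CPM (log2 0.98, SE 0.98). The paired alpha genes and the paired beta genes are nearly identical, so how fragments were split within a pair is uncertain. edgeR, DESeq2 and the count at unadjusted p under 0.05 each gave 0 globins, although the libraries of 6 of the 7 were separated. Ahsp, the alpha-globin chaperone, was not analysed here.

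Of the membrane skeleton, channel and blood group genes, 24 of 26 were higher in both knockout libraries and none lower, with a median of 0.60; edgeR called 0, 5 had an unadjusted p under 0.05 and DESeq2 called 2. Those 2 were Gypc, a glycophorin that anchors the skeleton to the membrane, at 51.5 and 54.4 CPM in the wild type and 85.5 and 71.8 in the knockout (log2 0.57, SE 0.14), and Epb41, protein 4.1 of the skeleton, at 275.7 and 212.0 against 384.5 and 334.4 CPM (log2 0.56, SE 0.14). Slc4a1 was at 2211 and 1695 CPM in the knockout, above the wild-type values given earlier (log2 0.88, SE 1.06). The SE draws on the spread in all 8 groups, and on days 1 and 2 Slc4a1 ranged from 0.536 to 18.3 CPM.

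The bases before the start of 3 genes of the haem and membrane lists are shown. They are the members with the smallest p among those that met several conditions. The window held a GATA word, the kind of site read by the erythroid factor GATA1. Genes on chromosomes 8 and 18, Abcb10 and Gypc among them, were left out. The RefSeq start lay within 50 bases of the start of the counted transcript. At least 150 bases in a row were free of annotated exons, and these held the word. Windows are from RefSeq (GRCm38.p6), cut to bases free of annotated exons and written 5′ to 3′ on the strand of the gene, with the word AGATAA or TGATAA on either strand in capitals.
Kel, blood group protease, chr6:41704340-41704575, minus strand, ending 14 bases before the RefSeq start: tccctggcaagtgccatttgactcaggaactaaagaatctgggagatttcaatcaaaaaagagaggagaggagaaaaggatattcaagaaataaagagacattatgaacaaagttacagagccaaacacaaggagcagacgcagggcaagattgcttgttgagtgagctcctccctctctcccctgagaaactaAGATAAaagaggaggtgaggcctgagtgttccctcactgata
Rhd, blood group antigen, chr4:134864286-134864535, plus strand, ending at the start: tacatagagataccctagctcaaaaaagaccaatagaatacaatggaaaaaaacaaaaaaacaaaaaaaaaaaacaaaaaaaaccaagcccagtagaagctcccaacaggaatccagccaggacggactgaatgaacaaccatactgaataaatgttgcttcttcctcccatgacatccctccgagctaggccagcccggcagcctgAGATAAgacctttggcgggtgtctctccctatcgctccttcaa
Alas2, haem synthesis, chrX:150547167-150547374, plus strand, ending 42 bases before the start: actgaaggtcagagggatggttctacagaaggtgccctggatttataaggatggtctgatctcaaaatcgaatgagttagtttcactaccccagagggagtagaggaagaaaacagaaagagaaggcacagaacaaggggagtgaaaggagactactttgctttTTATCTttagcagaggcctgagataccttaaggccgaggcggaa
Each of the 3 windows held 1 such word, and holding at least 1 was a condition of the choice. Their genes were higher in both knockout libraries, as were most members of the 2 lists they were taken from. A part of GATA1 in the differences was not tested. Kel was at 107.0 and 89.2 CPM in the wild type against 182.1 and 153.6 (log2 0.78, SE 0.72). Rhd was at 71.6 and 67.8 against 133.1 and 100.3 CPM (log2 0.74, SE 0.70). Over all 27025 promoters of the table, 17.0% held the word within 250 bases before the start, and over the 11328 matched to a tested gene 10.1% did. In the lists it was 7 of 18 matched membrane genes (38.9%), 3 of 14 haem genes (21.4%), 3 of 19 terminal maturation genes (15.8%), 2 of 18 plasma cell genes (11.1%) and 0 of 18 chaperone genes. The word CCNCNCCC, the kind read by KLF1, was in 61.4% of tested genes' windows and in 64.3% and 61.1% of those of the haem and membrane lists. A match of letters is a description and not a bound site.

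The list of terminal maturation, which covers clearance of organelles, ubiquitin ligases and late enzymes, had 22 of 26 members higher in both knockout libraries, none lower, and a median of 0.48. edgeR called 0, 15 had an unadjusted p under 0.05 on the higher side, and DESeq2 called 4. Rnf123, a ubiquitin ligase subunit, was at 126.7 and 110.9 CPM in the wild type and 187.1 and 158.7 in the knockout (log2 0.54, SE 0.13, DESeq2 adjusted p = 0.0184). Ube2o, a ubiquitin-conjugating enzyme that remodels the proteome of reticulocytes, was at 90.0 and 62.8 against 123.2 and 111.7 CPM (log2 0.62, SE 0.15, DESeq2 0.0291). Xpo7, a nuclear export receptor of maturing erythroblasts, was at 263.9 and 169.1 against 392.7 and 376.3 CPM, with the 2 knockout libraries close together (log2 0.83, SE 0.23, DESeq2 0.0184). Cd36, a fatty acid and thrombospondin receptor that erythroid progenitors share with macrophages, was at 43.4 and 32.4 against 63.7 and 61.8 CPM (log2 0.73, SE 0.17, DESeq2 0.0166). Bcl2l1, which encodes the survival protein BCL-XL, was at 30.5 and 20.5 against 39.2 and 36.4 CPM (log2 0.57, SE 0.16, adjusted p = 0.389).

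Regulators of the lineage were less uniform: 13 of 22 were higher in both knockout libraries and 2 lower, with a median of 0.33 that was 0.11 without KO replicate 1, 5 at unadjusted p under 0.05 on the higher side, and 0 called by edgeR or DESeq2. Foxo3, a transcription factor that acts in late erythroblasts, was at 117.2 and 95.0 CPM in the wild type and 174.4 and 136.0 in the knockout (log2 0.55, SE 0.15, adjusted p = 0.334). E2f2, a cell cycle factor of the same stage, was at 135.4 and 108.8 against 194.2 and 156.3 CPM (log2 0.52, SE 0.14). Gata1, at 38.4 and 43.8 against 60.3 and 43.1 CPM, and Klf1, at 60.6 and 70.3 against 111.5 and 73.0 CPM, were high mainly in KO replicate 1; for Gata1 the groups overlapped. Epor, the erythropoietin receptor, was at 24.3 and 24.4 CPM in the wild type and 42.7 and 34.2 in the knockout (log2 0.66, SE 0.50). In the iron list 7 of 19 were higher in both knockout libraries and 2 lower, with a median of 0.06 and 4 at unadjusted p under 0.05. The erythroid uptake genes in it were among the higher ones: the transferrin receptor Tfrc was at 360.8 and 377.3 against 573.9 and 499.0 CPM (log2 0.54, SE 0.25, adjusted p = 0.795) and the endosomal iron transporter Slc11a2 at 28.5 and 30.9 against 41.6 and 36.1 CPM (log2 0.39, SE 0.13).

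**Figure D2:**
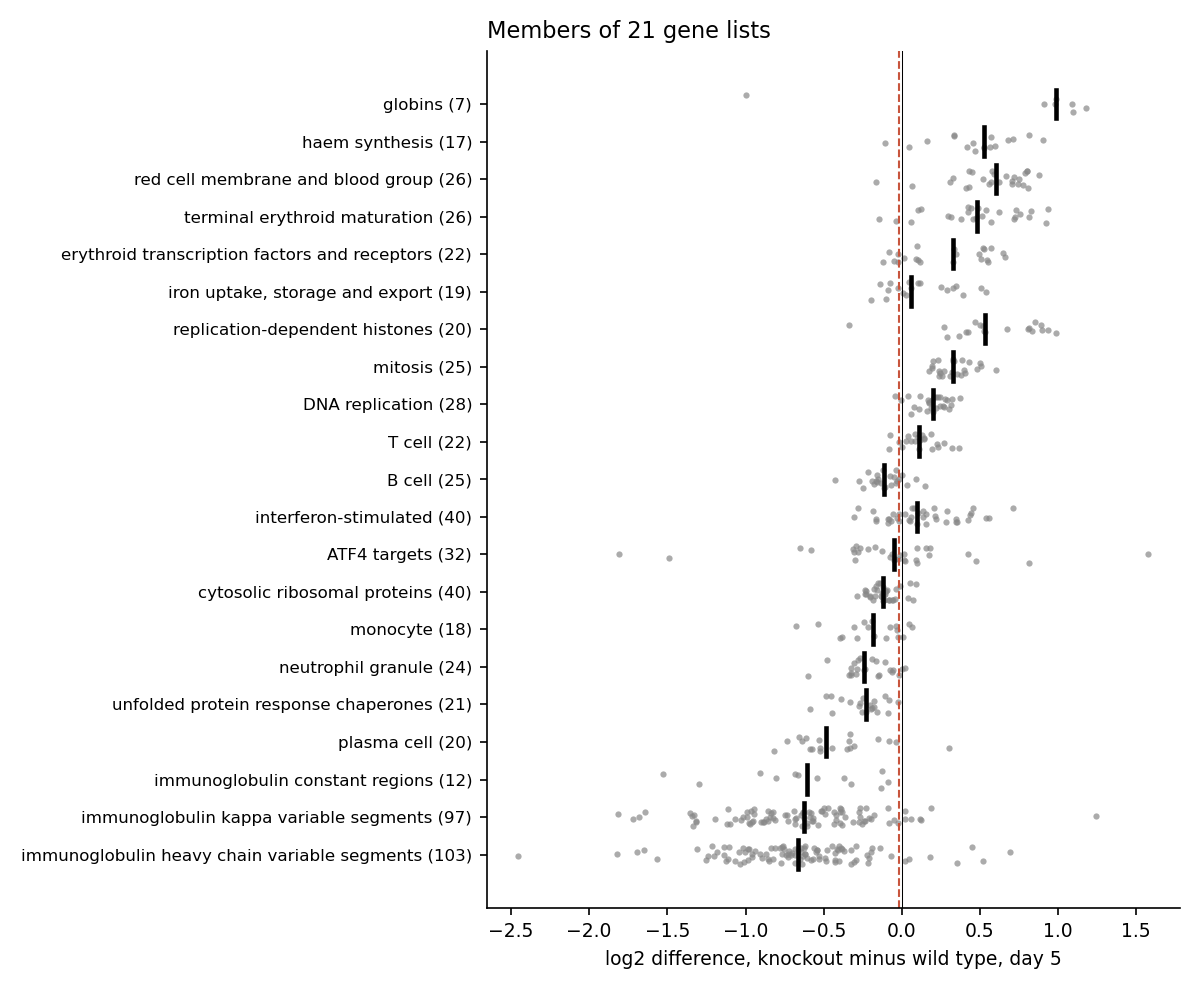
Log2 difference of each tested member (grey points, knockout minus wild type, day 5) in 21 gene lists with the number of members in brackets; black bars are list medians and the dashed line is the median of all genes. The haem, membrane and maturation lists have medians of 0.52, 0.60 and 0.48, the immunoglobulin constant and heavy chain variable lists -0.60 and -0.66.

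Mitosis and histone genes were also higher in the knockout, and KO replicate 1 was the highest of the 4 libraries for 25 of 25 and 19 of 20 of them. All 25 tested mitosis genes had a positive difference, 14 with both knockout libraries above the wild type, with a median of 0.33; without KO replicate 1 the median was 0.14. Of 28 DNA replication genes 7 were above (25%, against 19.1% of all genes) and none below, and the median of 0.20 was 0.02 without that library. Of 41 listed replication-dependent histone genes, 20 were found in the files by symbol. Of these 20, 19 were above and 1 below (median 0.53, and 0.28 without KO replicate 1). No member of the 3 lists was called by edgeR or DESeq2, and at unadjusted p under 0.05, 4, 2 and 11 were higher. DESeq2 did call higher the histone genes H2bu2 and H4c11, which are not in the list. H2bu2 was at 24.2 and 25.2 CPM in the wild type and 60.3 and 35.1 in the knockout (DESeq2 adjusted p = 0.0242). H4c11 was at 70.9 and 83.9 against 161.8 and 105.9 CPM (DESeq2 0.0467). Ube2c, which feeds the ligase that ends mitosis, was at 37.3 and 39.1 CPM in the wild type and 67.1 and 48.7 in the knockout (log2 0.60, SE 0.22). H1f4, a linker histone, was at 319.7 and 363.1 against 559.7 and 407.7 CPM (log2 0.50, SE 0.19). Histone genes of a family are close copies, so single values are uncertain, and their transcripts, which mostly lack a poly(A) tail, are kept in libraries made by depletion of ribosomal RNA.

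Immunoglobulin and plasma cell transcripts were lower in the knockout. Both knockout libraries were below both wild-type libraries for 16 of 20 plasma cell genes and above for 1, with a median of -0.49 (-0.30 without KO replicate 1); edgeR and DESeq2 called 0, and 7 had an unadjusted p under 0.05 on the lower side. Of 12 immunoglobulin constant region genes 9 were below and none above, with a median of -0.60, 6 at unadjusted p under 0.05, and 0 called by either tool. Igkc, the kappa light chain constant region, was at 2632 and 3652 CPM in the wild type and 1823 and 2085 in the knockout (log2 -0.69, SE 0.22, adjusted p = 0.546). Ighm, the constant region of IgM, was at 4986 and 5619 against 3233 and 4033 CPM (log2 -0.55, SE 0.21). The class-switched Ighg2c was at 646.1 and 1165 against 453.1 and 514.0 CPM (log2 -0.90, SE 0.34), and Ighg1 at 64.9 and 95.3 against 26.0 and 29.5 CPM (log2 -1.53, SE 0.63). WT replicate 2 was the highest of the 4 libraries for 10 of the 12 genes, and the median without it was -0.29.

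Jchain, which joins IgM and IgA into polymers, was at 364.8 and 486.3 CPM in the wild type and 231.2 and 316.4 in the knockout (log2 -0.64, SE 0.39). Xbp1, the transcription factor of the secretory programme, was at 81.4 and 100.7 against 65.4 and 78.4 CPM (log2 -0.34, SE 0.20), and the plasma cell surface marker Sdc1 at 11.01 and 16.3 against 8.003 and 9.34 CPM (log2 -0.66, SE 0.35). Creld2, a stress-induced protein of the endoplasmic reticulum, had the smallest p of the list, at 22.6 and 27.7 against 15.2 and 18.2 CPM (log2 -0.59, SE 0.16, adjusted p = 0.335). Among 21 chaperones and folding enzymes of the unfolded protein response, a list that shares Creld2, 16 were below in both knockout libraries and none above (median -0.23, and -0.15 without WT replicate 2, 5 at unadjusted p under 0.05, 0 called by edgeR or DESeq2). Hsp90b1, the resident HSP90 of that compartment, was at 370.2 and 471.5 against 278.1 and 322.4 CPM (log2 -0.49, SE 0.17), and Pdia4, a disulfide isomerase, at 181.1 and 192.8 against 124.1 and 149.5 CPM (log2 -0.45, SE 0.16).

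Variable segments gave most of the lower calls of DESeq2: 19 of the 21, the others being Ide and Epcam. The groups of variable segments were added after values were seen. Of 103 heavy chain segments 74 were below in both knockout libraries and 2 above (median -0.66, 44 at unadjusted p under 0.05); of 97 kappa segments 55 were below and none above (median -0.63, 36 at unadjusted p under 0.05). edgeR called 0 of both and DESeq2 10 and 9. Igkv1-117 was at 46.7 and 48.1 CPM in the wild type and 20.3 and 28.2 in the knockout (log2 -0.97, SE 0.16, adjusted p = 0.119, and 0.012 without KO_D2 replicate 1). Ighv1-5 was at 12.6 and 15.2 against 4.71 and 4.65 CPM (log2 -1.56, SE 0.30, adjusted p = 0.214, and 0.00157 without that library). Segments of a family are alike in sequence and their fragments may be shared.

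B cell markers were closer between the genotypes: of 25 genes 4 were below in both knockout libraries and none above, with 0 called and a median of -0.11 that was 0.04 without WT replicate 1 and -0.24 without WT replicate 2. Their summed FPKM was 1019 and 875 in the wild type and 790 and 880.5 in the knockout, so that the groups overlapped, whereas that of the plasma cell list was 525.9 and 679.8 against 360.7 and 454.1. In the T cell list 5 of 22 were above and none below (median 0.11, but 0.30 without KO replicate 1 and -0.07 without KO replicate 2, summed FPKM 240.4 and 231.3 against 214.9 and 264.8, 0 called). Neutrophil granule genes had 9 of 24 below and none above (median -0.24, and -0.04 without KO replicate 1). S100a8, a calcium-binding protein of neutrophils, was at 139.1 and 165.7 against 101.6 and 149.1 CPM, with overlapping groups (log2 -0.28, SE 0.54). Of 40 cytosolic ribosomal protein genes 29 were below in both knockout libraries and none above, by a small median of -0.12. CPM are shares of a library, and the erythroid and immunoglobulin sums lay in opposite directions in the same 4 libraries; the part of either in the other was not tested.

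**Figure D3:**
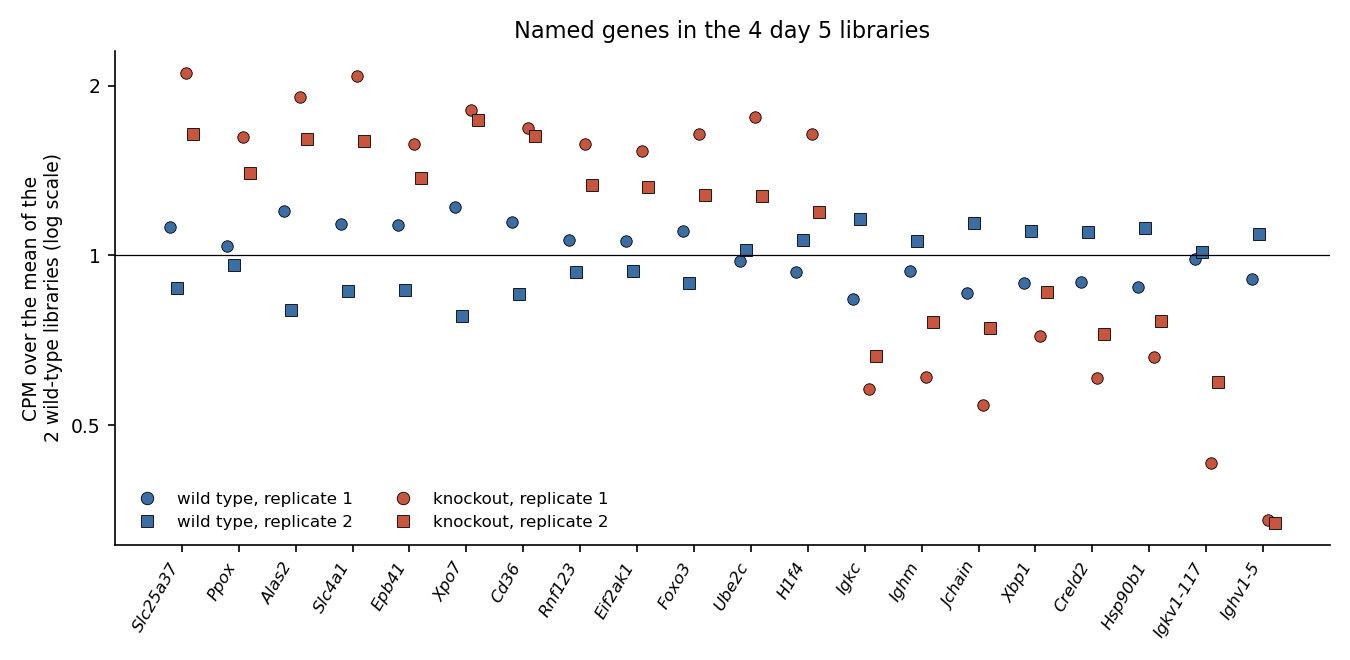
CPM of 20 named genes in each of the 4 day 5 libraries, divided by the mean of the 2 wild-type libraries (log axis; circles replicate 1, squares replicate 2). Both knockout libraries lie above the wild type for erythroid genes such as Slc25a37 (546.4 and 426.4 against 291.7 and 227.6 CPM) and below it for immunoglobulin genes such as Igkc.

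**Figure D4:**
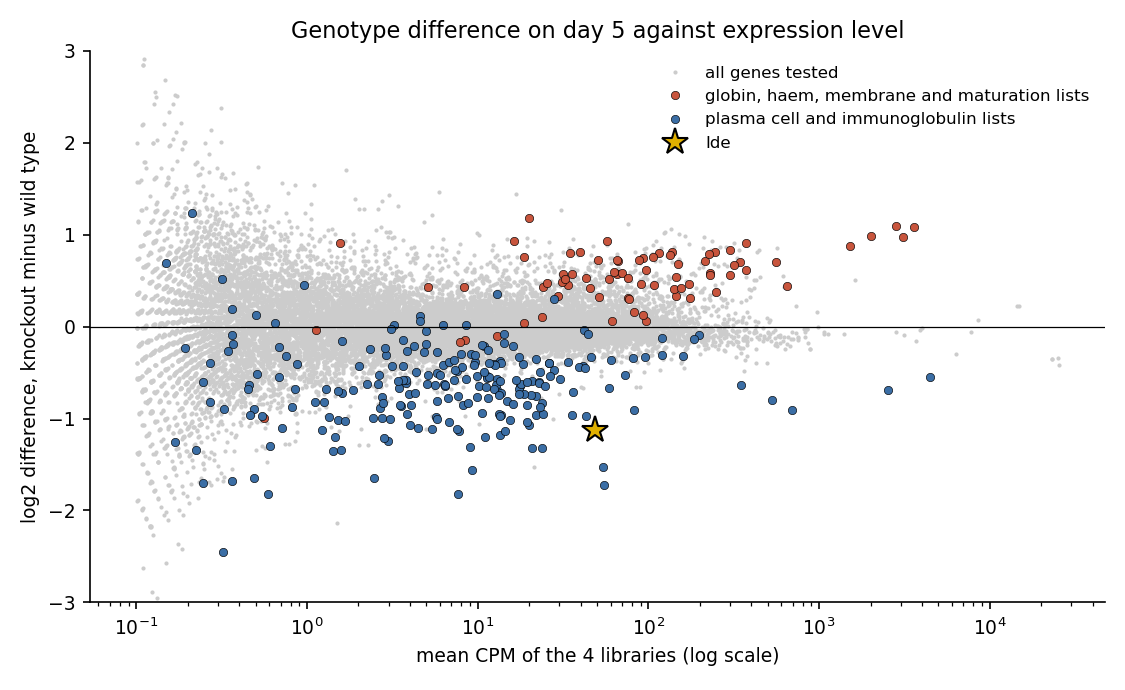
Log2 difference against mean CPM of the 4 libraries (log axis) for tested genes at 0.1 CPM or more, with the axis cut at 3 in either direction. Erythroid list members (red) lie mainly above 0 and plasma cell and immunoglobulin genes (blue) below it, and Ide (star) is the gene called.

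The eIF2alpha pathway itself showed 1 member other than Eif2ak2 with a small p. Eif2ak1, the haem-regulated kinase that is abundant in erythroblasts, was at 81.2 and 71.9 CPM in the wild type and 117.5 and 101.3 in the knockout (log2 0.51, SE 0.12, edgeR adjusted p = 0.290, DESeq2 0.0273). On days 0, 1 and 2 it was at 27.2 to 32.7 CPM in both genotypes. Eif2ak3, at 38.4 and 34.2 against 32.9 and 34.2 CPM, and Eif2ak4, at 19.7 and 17.7 against 19.2 and 20.3 CPM, differed by -0.12 (SE 0.13) and 0.08 (SE 0.12). Of the 18 kinases, phosphatase subunits and eIF2 factors 2 were above and 6 below, and edgeR called 0. Among 32 ATF4 targets 5 were above and 8 below, with a median of -0.05, 1 higher and 2 lower at unadjusted p under 0.05 and 0 called by either tool. Atf4 was at 83.1 and 88.1 against 98.7 and 84.5 CPM (log2 0.10, SE 0.12) and Ddit3, which encodes the stress factor CHOP, at 7.73 and 7.68 against 8.34 and 7.25 CPM (log2 0.02, SE 0.20). The amino acid transporter Slc7a5 had the smallest p of the list, at 33.8 and 33.0 against 49.2 and 40.3 CPM (log2 0.42, SE 0.14, adjusted p = 0.540).

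Interferon-stimulated genes gave 6 of 40 above and 2 below, with a median of 0.10 that was 0.34 without KO replicate 1 and -0.22 without KO replicate 2, and 0 called by edgeR or DESeq2. Cmpk2, an interferon-induced nucleotide kinase, was at 22.6 and 18.8 against 27.9 and 28.1 CPM (log2 0.44, SE 0.14, adjusted p = 0.475). Of cytokines, Il1b was at 22.9 to 23.2 CPM in 3 libraries and at 14.1 in KO replicate 1, and Tnf at 5.96 and 4.21 against 5.13 and 5.53 CPM, with overlapping groups. Ifng was at 0.834 and 0.563 against 0.518 and 1.18 CPM. Foxp3, the factor of regulatory T cells, was at 4.14 and 3.33 CPM in the wild type and 1.97 and 2.30 in the knockout (log2 -0.81, SE 0.25, adjusted p = 0.469). Of the 21 genes of the fixed panel of erythroid, kinase, stress and cytokine genes, 0 passed edgeR's test and 1, Eif2ak1, had an unadjusted p under 0.05.

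Of the 53 genes that DESeq2 called higher, 11 belong to the 6 erythroid lists and 41 to no list. In 51 of the 53 KO replicate 1 was the higher of the knockout pair. In all 53 the libraries were separated, which a choice by small p on these same libraries favours. Those with the smallest p outside the lists included Pigq, of glycosylphosphatidylinositol anchor synthesis, at 119.2 and 112.8 against 212.9 and 163.7 CPM (log2 0.70, SE 0.13, edgeR adjusted p = 0.119, and 0.0452 without KO_D2 replicate 1). Fam117a was at 71.7 and 64.4 against 121.1 and 98.4 CPM (log2 0.69, SE 0.13), and Ranbp10, a binding partner of the GTPase RAN, at 128.0 and 98.2 against 205.3 and 168.9 CPM (log2 0.73, SE 0.15). Trak2, an adaptor for transport of mitochondria along microtubules, was at 213.9 and 179.7 against 338.8 and 284.8 CPM (log2 0.66, SE 0.15).

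The earlier days give a scale for these medians; single genes had an unadjusted p under 0.05 in 5.94%, 9.17% and 4.83% of tests on days 0, 1 and 2. For the haem list the median genotype difference was 0.04, -0.08 and -0.09 on days 0, 1 and 2, against 0.52 on day 5. The day 2 values rest on 2 knockout libraries of which replicate 1 goes against its label, so they are no firm scale for genotype. For the membrane list it was 0.09, -0.07 and -0.39 against 0.60. For globins it was 0.56 on day 0, then -0.35 and -0.23 on days 1 and 2, against 0.99 on day 5. Immunoglobulin constant regions were at -0.17, -0.13 and -0.25 against -0.60. For the plasma cell list it was -0.10, -0.15 and -0.01 against -0.49, and for heavy chain variable segments -0.06, -0.08 and -0.01 against -0.66. Within each genotype the erythroid lists were far above day 0 by day 5: the median difference from day 0 was 2.27 for the wild type and 2.82 for the knockout in haem synthesis, and 3.88 and 4.26 for the membrane list, values that share the day 5 libraries with the genotype difference. Tested gene by gene, the difference of day 5 minus that of day 0 was called for 0 of 18745 genes by edgeR (1483 at unadjusted p under 0.05, 7.91%) and for 37 by DESeq2. Against day 1 it was called for 1 gene (0.00533%, with 5.99% at unadjusted p under 0.05) and against day 2, which rests on the same doubtful library, for 0, with 1064 at unadjusted p under 0.05 (5.68%). That the erythroid or plasma cell difference is particular to day 5 is therefore not shown for single genes by edgeR.

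**Figure D5:**
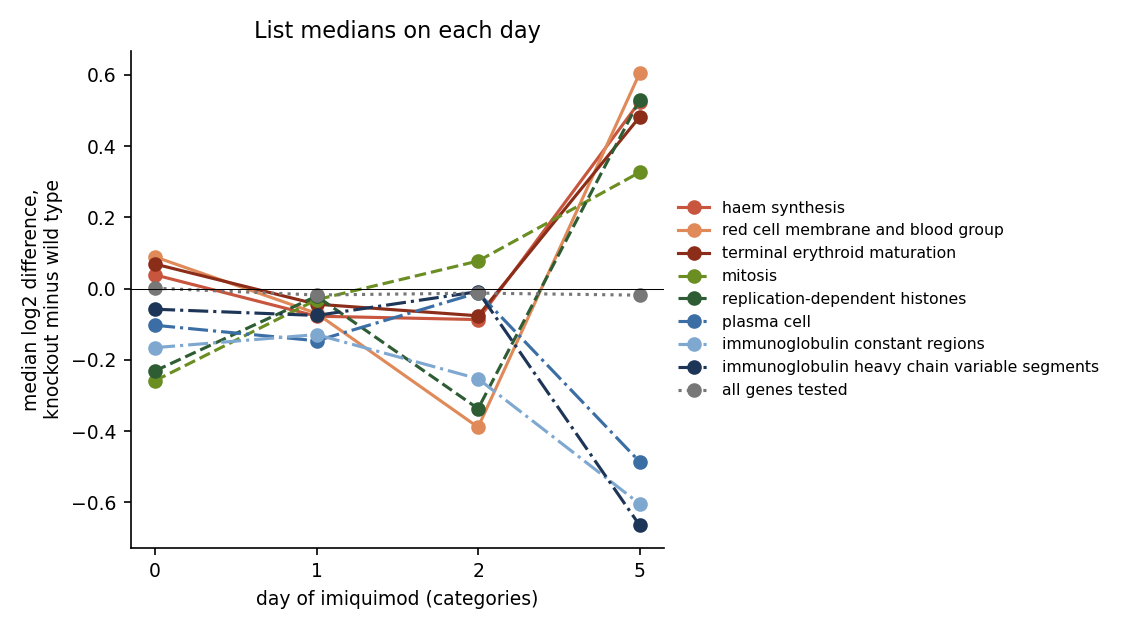
Median log2 genotype difference of 8 gene lists and of all genes tested on each day (categories, not to scale), with lines joining the days of a list. The haem list goes from -0.09 on day 2 to 0.52 on day 5 and the plasma cell list from -0.01 to -0.49, while all genes stay within 0.02 of 0; day 2 includes the knockout library that goes against its label.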

How the data were processed

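Total RNA depleted of ribosomal RNA was sequenced as stranded libraries from pooled spleen cells of 16 groups of 2 mice. Per the submitters' processing notes, bcl2fastq 2.17.1.14, Trimmomatic, HISAT2, TopHat and the mm10 build were used, with no roles stated; the sources used here name no counting program or annotation. Per the file headers, the deposited tables hold a fragment count, FPM, FPKM and length for 142604 transcripts. The deposited FPM is a signal scaled to the library's total fragments, and the authors' FPKM is FPM per kilobase of transcript. The summed counts were 1.51 to 1.63 times the day 5 totals, since isoforms share fragments.

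For each of 55291 symbols the transcript with the highest mean count was kept, taken among protein-coding ones where GENCODE mouse release 21 (99.1% of identifiers matched) gives any. edgeR 4.0.16 (R 4.3.3) was run on 18745 genes kept by filterByExpr, with TMM scaling, 1 mean for each of 8 groups over all 16 libraries and 8 residual degrees of freedom. Its robust quasi-likelihood F test is two-sided, with Benjamini-Hochberg adjustment over all genes and calls at adjusted p under 0.05. Unless another tool is named, adjusted p-values are from it. Each SE is worked back from the same test, as the size of the difference divided by the square root of F. It is edgeR's also where a DESeq2 adjusted p stands beside it. Alternatives were DESeq2 1.42.0, limma 3.58.1 on log2(FPKM + 0.1), other filters and scalings, other transcript choices, and libraries left out.

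The genes named were Eif2ak2, called genes, the members of each list with the smallest p, and a panel of 21. All other genes were named after their values were seen. A member of the panel is not reported here by name. The question, the 45 gene lists and the rules, and 3 groups of variable segments added later, were chosen with earlier results of these data known, so no list is independent evidence. Replicate numbers were not used as pairs: deviations of same-numbered day 5 libraries correlated at -0.07 across genes.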

Additional observations from a re-analysis of the deposited data

Results flagged for a closer look

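The genotype difference of 1 gene was not the same on days 5 and 1 by a test of the difference itself. Gm25395, annotated as a small Cajal body RNA on chromosome 1, had a log2 difference of 0.35 on day 5 (adjusted p = 0.731) and -1.10 on day 1 (adjusted p = 0.00294). The day 5 difference minus the day 1 difference was 1.45 (SE 0.21, edgeR adjusted p = 0.039). On day 5 it was at 37.4 and 36.6 CPM in the wild type and 50.8 and 43.3 in the knockout. On day 1 it was at 134.6 and 130.5 CPM in the wild type and 62.4 and 61.3 in the knockout. The 4 knockout libraries and the 2 wild-type libraries of day 5 all lie below the wild type of day 1. It was the only gene of 18745 called in that comparison.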

How the results depend on the processing

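The number of genes called on day 5 depended on the setting, while the direction of the list medians did not for the 6 lists followed as main results (haem, membrane, maturation, plasma cell, immunoglobulin constant regions, chaperones). Against 1 call, there were 208 (138 higher, 70 lower) with no filter, 74 (53 and 21) with DESeq2, 12 (4 and 8) without KO_D2 replicate 1 and as many without KO_D2 replicate 2, 9 (2 and 7) with no day 2 libraries, 6 lower ones in a fit of the day 5 libraries alone, and 0 with limma. Leaving out a day 5 or day 0 library gave 0 to 7 calls: 7 without WT_D5 replicate 1, 5 without KO_D5 replicate 2, 0 without WT_D5 replicate 2, and without KO_D5 replicate 1 1 that was not Ide. The day 5 minus day 0 difference, with 0 calls, gave 156 with no filter, 37 with DESeq2, 7 without KO_D2 replicate 1, 5 without KO_D2 replicate 2 and 2 with no day 2 libraries; leaving out a day 5 or day 0 library gave 0 to 44, the 44 coming without WT_D0 replicate 1. The call of Ide held on 2 of the other days; it held on 1 with limma, with the FPKM filter, with summed isoforms, with the replicate block and without each day 5 library. Within 10 Mb of Eif2ak2, 1 gene instead of 0 was called with DESeq2 and with no filter. Eif2ak2 passed without KO_D2 replicate 1 (log2 -0.78) and with no day 2 libraries (log2 -0.76, adjusted p = 0.0351); over the libraries left out its difference ranged from -0.91 to -0.65. Among list medians, that of immunoglobulin constant regions ranged from -0.76 to -0.29 and that of chaperones from -0.32 to -0.15 over the day 5 libraries left out. Some named genes that were not called changed sign, and not only near 0. Ddit3 was at -0.0517 with limma, -0.007 with summed isoforms and from -0.0769 to 0.114 over the libraries left out. Over those, Atf4 ranged from -0.0085 to 0.206, Il1b from -0.71 to 0.0014, Tnf from -0.16 to 0.35 and Ifng from -0.43 to 0.77. Leaving out KO_D2 replicate 2 was chosen after seeing the data; all other settings were planned. Where an arm was left with 1 library, that library was assumed to vary like the other groups. The cause of these changes was not tested.

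Deviations of same-numbered libraries of the 2 genotypes correlated at 0.208, -0.0902, 0.179 and -0.0724 across genes on days 0, 1, 2 and 5. They were above 0.1 on days 0 and 2 only, and the numbers were not taken as pairs; a fit with the replicate number within day as a block gave 34 calls on day 5 (15 higher, 19 lower) and 6 for the day 5 minus day 0 difference. No scaling moved the median of all genes by more than 0.1 on the log2 scale.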

Other observations

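How the libraries fell is given here for some gene groups outside the comparisons above, with 0 genes called by edgeR or DESeq2 in each. Of all genes tested, 19.1% were above and 19% below. Of 22 immediate-early genes, the transcription factors induced within minutes of a stimulus, both knockout libraries were below both wild-type libraries for 10 (45.5%) and above for 2 (9.09%). Of 17 tested genes of regulatory and helper T cells 8 were below (47.1%) and 1 above (5.88%), and 2 had an unadjusted p under 0.05 on the lower side. Of 23 glycolysis and hypoxia genes 8 were below (34.8%) and none above. Of 18 megakaryocyte and platelet genes, a lineage that shares a progenitor with red cells, 6 were above (33.3%) and 3 below (16.7%). T cell receptor variable segments were split evenly and lay near the shares of all genes, with 14 of 86 above (16.3%) and 13 below (15.1%). For comparison, of the 103 heavy chain segments covered above 74 were below (71.8%), and DESeq2 called 10 of them lower. Tsc22d3, which encodes the glucocorticoid-induced leucine zipper, was at 119.5 and 101.0 CPM in the wild type and 82.3 and 74.6 in the knockout (log2 -0.49, SE 0.17, adjusted p = 0.569).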
